A study of Mus musculus with 10 samples.

Results

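Astrocytes take up and process synaptic glutamate and GABA through a small set of genes, and 6 of them were followed in mouse hippocampus. They are Slc1a2, Slc1a3, Glul, Slc6a11, Glud1 and Slc38a3, found by symbol among the 20156 rows of the deposited count table, and all 6 passed the filter on low counts. RNA was sequenced from 5 wild type mice (WT) and 5 mice of the genotype labelled TfamAKO, all 6 months old, with 1 library per mouse. Tfam is the mitochondrial transcription factor that also packages the mitochondrial genome. Astrocytic mitochondria are named in the title of the series, but the labels give neither the deleted part of Tfam nor the promoter that drives the deletion, and they state no sex, litter or batch. The comparison asks how the transcripts of transmitter clearance differ in hippocampus between the genotypes.

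Glutamate released at excitatory synapses is removed mainly by the sodium-coupled transporters GLT-1 (encoded by Slc1a2) and GLAST (encoded by Slc1a3) in astrocyte membranes. Glutamine synthetase (Glul) converts it to glutamine, and the transporter SNAT3 (Slc38a3) releases glutamine for neurons to turn into glutamate and GABA again. GABA is taken up into astrocytes by GAT3 (Slc6a11), and glutamate dehydrogenase (Glud1) carries glutamate carbon into the mitochondrial tricarboxylic acid cycle. These genes are strongly expressed in astrocytes, although Glud1 is expressed in many cell types, Glul is also found in oligodendrocytes, and Slc38a3 is also used outside the nervous system.

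Total counts per library ran from 16584245 to 28675367. Tfam was at 20.6 to 33.0 CPM (CPM is the count relative to the scaled library size, times 1000000) in WT and at 19.6 to 23.6 CPM in TfamAKO, and the groups overlapped through WT 3 (-0.40 ± 0.12, edgeR adjusted p = 0.0204). TfamAKO 4 and 5 carried the Y-linked transcript Kdm5d at 22.7 and 22.4 CPM and the X-inactivation transcript Xist at 0.141 and 0 CPM. In the other 8 libraries Kdm5d was below 0.7 CPM and Xist at 201 to 467 CPM. The summed level of 10 choroid plexus markers was 2856 to 5757 CPM in WT 3, 4 and 5, 46.4 and 166 CPM in WT 1 and 2, and 40.7 to 136 CPM in TfamAKO. Each of these sets of libraries was therefore also left out as a whole, in a fit of its own. The values from these separate fits stand beside the results below. Log2 fold changes are TfamAKO minus WT with their standard error (SE), from a fit over all 16180 genes tested, and a gene was called at an adjusted p below 0.05.

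The upstream sequences of the 3 uptake transporters are given, because Slc1a2 and Slc1a3, 2 members of the same family, moved in opposite directions and Slc6a11 is the GABA transporter of the set. They come from the RefSeq promoter windows on GRCm38.p6, cut to the bases before the transcript start that no GENCODE M21 exon covers. They are the plus strand chr2:102706188-102706355 for Slc1a2, the minus strand chr15:8710808-8711057 for Slc1a3 and the plus strand chr6:114130991-114131240 for Slc6a11. Capitals mark matches, on either strand, to the motifs named below.
Slc1a2: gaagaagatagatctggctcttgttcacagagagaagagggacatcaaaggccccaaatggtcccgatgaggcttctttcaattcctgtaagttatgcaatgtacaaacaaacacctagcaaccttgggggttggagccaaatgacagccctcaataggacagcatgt
Slc1a3: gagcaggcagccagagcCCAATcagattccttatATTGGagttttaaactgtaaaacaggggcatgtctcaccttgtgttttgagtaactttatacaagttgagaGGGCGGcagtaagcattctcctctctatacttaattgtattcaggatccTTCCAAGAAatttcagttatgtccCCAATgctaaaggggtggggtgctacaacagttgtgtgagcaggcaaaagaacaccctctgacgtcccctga
Slc6a11: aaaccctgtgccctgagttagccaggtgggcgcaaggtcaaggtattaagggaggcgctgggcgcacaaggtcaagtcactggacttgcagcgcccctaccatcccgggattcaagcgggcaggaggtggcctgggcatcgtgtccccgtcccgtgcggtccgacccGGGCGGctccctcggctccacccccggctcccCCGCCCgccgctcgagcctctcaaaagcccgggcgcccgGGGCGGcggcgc
The Slc1a2 stretch lies upstream of an internal transcript start, within introns of longer Slc1a2 transcripts such as Slc1a2-202. Over the 250 bases before each start, the windows of Slc1a2 and Slc1a3 had 44.8% G or C, that of Slc6a11 71.2% and that of Glud1 82.0%. A RefSeq window was found for 5 of the 6 genes, all but Slc38a3. The Glul window was searched for motifs but is not printed, because exons of Mir8114 and Teddm2 cover it.

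A set of 8 motifs was searched on both strands of these 250 bases. The STAT motif TTCNNNGAA matched in Slc1a3, from 96 to 88 bases before the start (first_base -96, last_base -88), and in 7.02% of all 32851 windows. The GC box GGGCGG matched in Slc1a3, Glul, Slc6a11 and Glud1, and in 32.7% of all windows. The CCAAT box, searched as CCAAT, matched in Slc1a3 and Glul, and in 33.8% of all windows. The NF-kB motif (0.98% of all windows), the cyclic AMP element TGACGTCA (1.55%), the CARE motif TGATGNAA that ATF4 can bind (3.45%), the AP-1 motif TGANTCA (6.75%) and the E-box CACGTG (6.02%) matched in none of the 5 windows. In Slc6a11 the matches were 3 GC boxes, and in the Slc1a2 window no motif of the 8 matched. A match describes letters in a window and shows no bound factor.

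Of the 6 clearance genes, 2 rose (Slc1a3 and Slc38a3), 3 fell (Slc1a2, Glul and Slc6a11) and Glud1 did not pass the test. Among all genes tested 37.4% passed, 20.8% higher and 16.6% lower in TfamAKO. The median log2 fold change of the 6 genes was -0.26, against -0.02 over all genes tested. This median falls in the gap between Glul at -0.57 and Glud1 at 0.05, so it describes no single gene and no common fall. The genotypes did not overlap in 5 of the 6 genes, against 23.9% of all genes tested. These genes were chosen with earlier results of the same data known, so their count is a description.

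**Figure D1:**
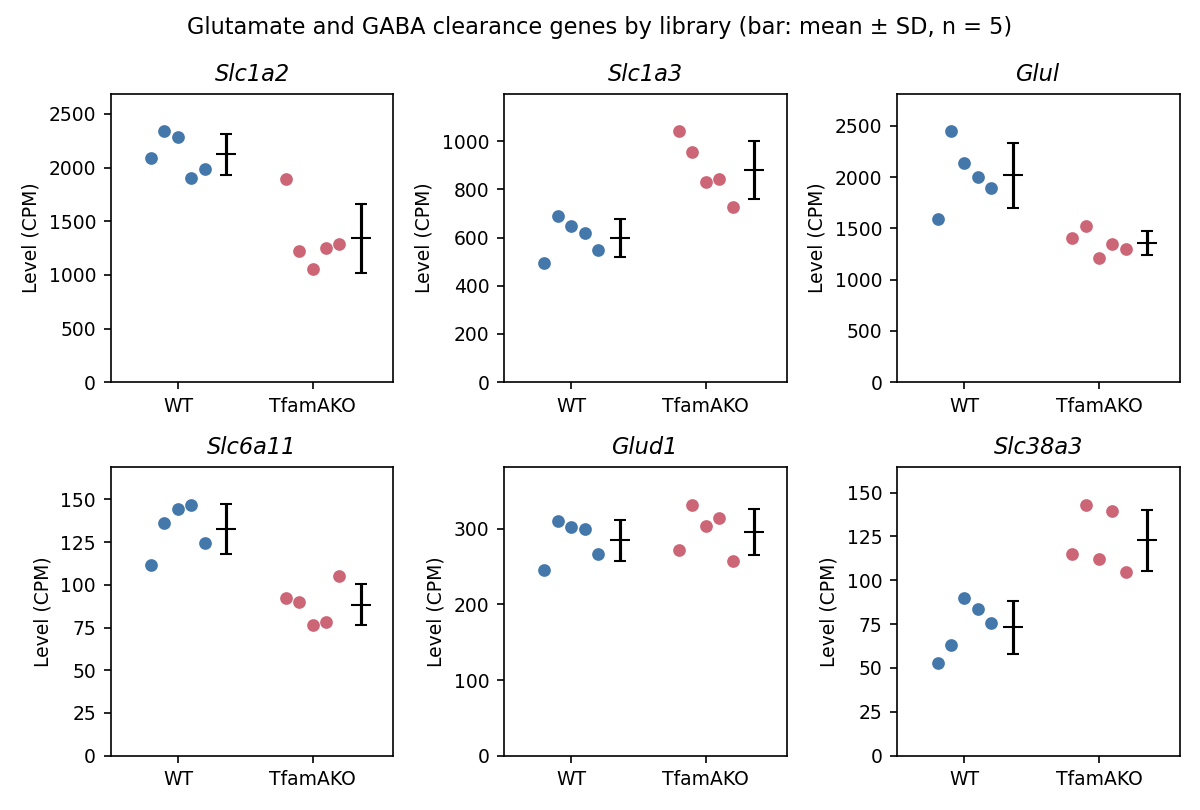
Level of each clearance gene (vertical axis, CPM, from 0) in the 5 WT and 5 TfamAKO libraries, with points for libraries in the order of their numbers and a bar for mean ± SD. The genotypes are separate in all panels except Glud1, where WT spans 245 to 310 CPM and TfamAKO 257 to 332 CPM.

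Slc1a2, the main glutamate transporter of the adult forebrain, stood at 2088, 2339, 2288, 1904 and 1990 CPM in WT 1 to 5. In TfamAKO 1 to 5 it was at 1890, 1225, 1051, 1251 and 1284 CPM. All TfamAKO libraries lay below all WT libraries, but TfamAKO 1 stood just under WT 4 and far above the other 4. The mean was 2122 ± 187 CPM in the WT group and 1340 ± 320 CPM in the TfamAKO group (SD, n = 5 each), which gave a log2 fold change of -0.66 ± 0.13 (edgeR adjusted p = 0.00256). The 95% interval of this value ran from -0.96 to -0.37. Of all genes tested, 5.95% had a lower log2 fold change. The coefficient of variation was 8.84% in WT and 23.9% in TfamAKO. Without TfamAKO 1 the log2 fold change was -0.82.

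Slc1a3, the second astrocyte glutamate transporter and also a marker of radial glia, was at 494, 689, 650, 620 and 548 CPM in WT 1 to 5. In TfamAKO 1 to 5 it was at 1042, 958, 829, 845 and 728 CPM. The lowest TfamAKO library, TfamAKO 5, lay above the highest WT library, WT 2. The mean went from 599.9 ± 78.7 CPM to 880 ± 122 CPM (SD, n = 5 each), a rise of 0.55 ± 0.11 on the log2 scale (edgeR adjusted p = 0.00222). The 95% interval ran from 0.31 to 0.79, which is 1.24-fold to 1.73-fold.

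The 2 transporters were compared within each library as a ratio of read counts, which needs neither the library scaling nor a transcript length. Slc1a2 gave 4.23, 3.40, 3.52, 3.07 and 3.63 reads per Slc1a3 read in WT 1 to 5, and 1.81, 1.28, 1.27, 1.48 and 1.76 in TfamAKO 1 to 5. The ratio averaged 3.57 ± 0.424 in WT and 1.52 ± 0.259 in TfamAKO (SD, n = 5 each), and the groups did not overlap. This separation adds nothing to that of the single genes. Each was already separate between the genotypes, in opposite directions, so their ratio had to be separate too. Without TfamAKO 1, the remaining TfamAKO libraries still lay at 1.27 to 1.76. The ratio is given with no test, because the genes were paired after their directions were known.

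**Figure D2:**
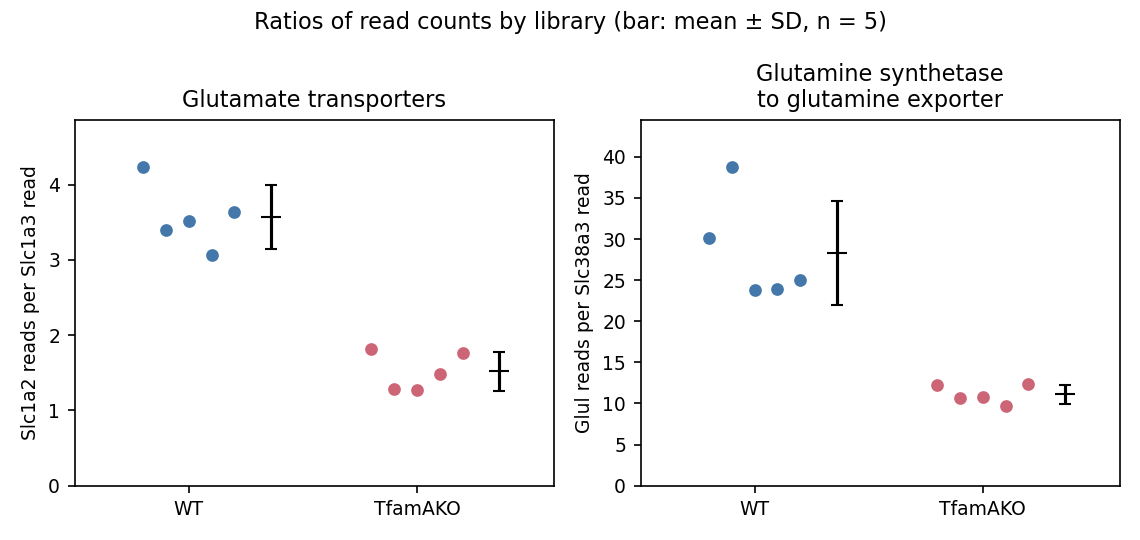
Slc1a2 reads per Slc1a3 read (left) and Glul reads per Slc38a3 read (right) in each library, on linear axes from 0, with a bar for mean ± SD of 5 libraries. Both ratios are lower in TfamAKO, from 3.57 to 1.52 and from 28.3 to 11.1 on average. Their lack of overlap follows from the genes themselves, each already separate between the genotypes and in opposite directions.

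Glul, which makes glutamine from glutamate and ammonia, was at 1592, 2449, 2142, 2003 and 1894 CPM in WT 1 to 5. In TfamAKO 1 to 5 it was at 1411, 1520, 1207, 1345 and 1295 CPM. The groups did not overlap, and WT 1 was the WT library nearest to TfamAKO. The mean fell from 2016 ± 315 CPM to 1356 ± 118 CPM (SD, n = 5 each), with a log2 fold change of -0.57 ± 0.10 (edgeR adjusted p = 0.00133) and a 95% interval from -0.80 to -0.35. The opposite-strand gene Teddm2 and the microRNA gene Mir8114 overlap Glul exons in GENCODE M21, and Gm13872 overlaps Slc1a2 on the opposite strand. The libraries were made with a stranded kit, but no source used here says whether the counting used strand. Reads of such partners cannot then be told apart.

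Slc38a3, the sodium- and proton-coupled glutamine transporter of astrocytes, was at 52.9, 63.2, 89.9, 83.8 and 75.6 CPM in WT 1 to 5. In TfamAKO 1 to 5 it was at 115, 143, 112, 140 and 105 CPM. All TfamAKO libraries exceeded all WT libraries. The mean went from 73.1 ± 15.1 CPM to 123 ± 17.3 CPM (SD, n = 5 each), a rise of 0.75 ± 0.14 on the log2 scale (edgeR adjusted p = 0.00155) with a 95% interval from 0.44 to 1.05. Within WT, the 3 libraries with choroid plexus transcripts were the higher ones. Without WT 3, 4 and 5 the log2 fold change was 1.10 ± 0.15 (edgeR adjusted p = 0.00242). The part of choroid plexus tissue in the WT level was not tested.

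Transcripts for making glutamine and for exporting it thus moved in opposite directions. Glul gave 30.1, 38.7, 23.8, 23.9 and 25.1 reads per Slc38a3 read in WT 1 to 5, and 12.3, 10.6, 10.8, 9.64 and 12.4 in TfamAKO 1 to 5. The ratio averaged 28.3 ± 6.36 in WT and 11.1 ± 1.17 in TfamAKO (SD, n = 5 each), with no overlap. Glul and Slc38a3 were each already separate between the genotypes, in opposite directions, so their ratio had to be separate too. The ratio is given with no test, because these genes were chosen with earlier results of the same data known. The WT libraries with choroid plexus transcripts, WT 3, 4 and 5, had the lowest WT ratios, at 23.8 to 25.1. Reads of Glul per Slc1a2 read overlapped between the genotypes, at 0.763 to 1.05 in WT and 0.747 to 1.24 in TfamAKO.

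Slc6a11, the GABA transporter GAT3, was at 112, 136, 145, 147 and 125 CPM in WT 1 to 5. In TfamAKO 1 to 5 it was at 92.1, 90.1, 76.3, 78.2 and 105 CPM. The groups did not overlap, with TfamAKO 5 just under WT 1. The mean fell from 133 ± 14.7 CPM to 88.4 ± 11.8 CPM (SD, n = 5 each), with a log2 fold change of -0.59 ± 0.10 (edgeR adjusted p = 0.000885) and a 95% interval from -0.80 to -0.37. The call was lost without WT 3, 4 and 5 (-0.46 ± 0.15, edgeR adjusted p = 0.0608), a fit with 2 WT libraries.

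Glud1, which oxidises glutamate to 2-oxoglutarate in mitochondria, was at 245, 310, 302, 299 and 267 CPM in WT 1 to 5. In TfamAKO 1 to 5 it was at 272, 332, 304, 314 and 257 CPM. The genotypes overlapped almost throughout. The mean was 285 ± 27.4 CPM in WT and 296 ± 30.8 CPM in TfamAKO (SD, n = 5 each), with a log2 fold change of 0.05 ± 0.09 (edgeR adjusted p = 0.640). The 95% interval ran from -0.13 to 0.24, or 0.913-fold to 1.18-fold, so changes larger than this were outside the interval. Glul gave 6.49 to 7.90 reads per Glud1 read in WT and 3.97 to 5.18 in TfamAKO, with no overlap.

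**Figure D3:**
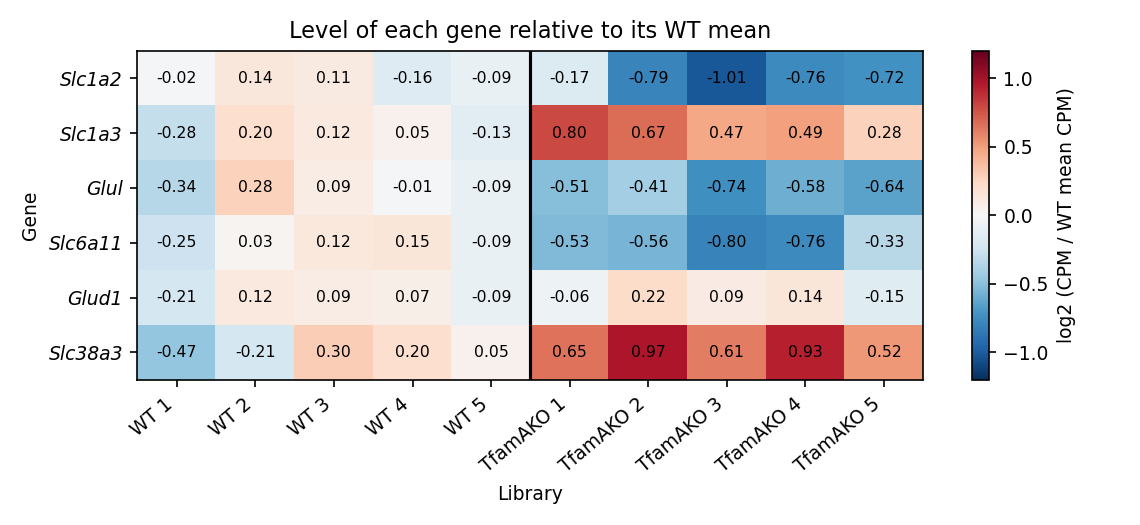
Log2 ratio of each library's CPM to the WT mean CPM for the 6 clearance genes (rows) in the 10 libraries (columns), with blue for lower and red for higher. TfamAKO libraries are blue for Slc1a2, Glul and Slc6a11 and red for Slc1a3 and Slc38a3, and TfamAKO 1 is the palest for Slc1a2 at -0.17.

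Some of the 6 genes varied together within genotypes and others did not. WT 1 was the lowest WT library for 5 of them, all but Slc1a2, and TfamAKO 5 the lowest TfamAKO library for 3 (Slc1a3, Glud1 and Slc38a3). The same 2 libraries had the lowest summed level of 20 other astrocyte markers in their groups, at 3337 CPM in WT 1 and 2992 CPM in TfamAKO 5. The sum is weighted towards the most abundant markers, with Clu at 1087 and Aldoc at 999 of 3908 CPM on average in WT. After each library's log2 CPM was centred on its genotype mean, Slc1a3 and Glul had Pearson's r = 0.82 (Spearman's rho = 0.88) over 10 libraries, and r = 0.79 without TfamAKO 5 and WT 1, the libraries farthest out for Slc1a3. Slc1a2 and Slc1a3 had r = 0.55 (rho = 0.37), and r = 0.34 without TfamAKO 1 and 3. Slc1a3 and Glul were the closest of all pairs of the 6 genes. At the other end were Slc1a2 with Glud1 (r = -0.22, rho = -0.16), Slc1a2 with Slc38a3 (r = -0.11, rho = -0.25) and Slc6a11 with Glud1 (r = 0.04, rho = 0.04). Values that rested on the farthest libraries included Slc1a3 with Slc38a3, which went from r = 0.47 to -0.15 without TfamAKO 5 and WT 1. Those of Slc6a11 with Slc38a3 went from 0.29 to -0.28 without TfamAKO 3 and WT 1. These values are descriptions, since the libraries share their scaling and the mix of cells in each sample.

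Over 12048 other genes with at least 5 CPM on average, the genes most like each clearance gene by this centred r were as follows. For Slc1a2 they were Grin2c, a glutamate receptor subunit (r = 0.97, rho = 0.83), the astrocyte marker S100b (r = 0.95, rho = 0.85) and Nudt5 (r = 0.94, rho = 0.83). Without TfamAKO 1 and 3, these values were 0.82, 0.70 and 0.81. For Slc1a3 they were Ddah1 (r = 0.98, rho = 0.95), Uba3 (r = 0.97, rho = 0.95) and the intermediate filament gene Gfap (r = 0.96, rho = 0.96), with 0.97, 0.96 and 0.92 without TfamAKO 5 and WT 1. For Glul, Hepacam, a cell adhesion gene of astrocytes, came first (r = 0.99, rho = 0.99), followed by 2510009E07Rik (r = 0.97) and Frs2 (r = 0.95). For Slc6a11 the first was Egln1 (r = 0.96, rho = 0.94), ahead of Spred1 (r = 0.90) and Tmem218 (r = 0.90). For Glud1 they were Gpr37l1, an astrocyte receptor (r = 0.99), Fads1 (r = 0.97) and Plp2 (r = 0.97), and for Slc38a3 the lysosomal protease gene Ctsd (r = 0.99), Hfe (r = 0.97) and Efemp2 (r = 0.96). With 10 libraries high values are common, and the 99th percentile of r over all these genes lay between 0.75 for Slc6a11 and 0.87 for Glud1.

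Levels of different genes were compared only per length, as CPM per kb of the longest annotated transcript. In WT the order was Glul (722 ± 113), Slc1a2 (183 ± 16.2), Slc1a3 (135 ± 17.8), Glud1 (84.0 ± 8.08), Slc6a11 (32.1 ± 3.56) and Slc38a3 (23.2 ± 4.78 CPM per kb, SD, n = 5). Only the last pair of neighbours overlapped in range, at 27.0 to 35.6 for Slc6a11 and 16.8 to 28.5 CPM per kb for Slc38a3. In TfamAKO the order was Glul (486 ± 42.4), Slc1a3 (199 ± 27.4), Slc1a2 (116 ± 27.6), Glud1 (87.3 ± 9.08), Slc38a3 (39.0 ± 5.49) and Slc6a11 (21.4 ± 2.86 CPM per kb, SD, n = 5). Here Slc1a2 (90.7 to 163) and Glud1 (75.7 to 97.9 CPM per kb) overlapped in range. The places of Slc1a2 and Slc1a3, and of Slc6a11 and Slc38a3, were thus exchanged between the genotypes.

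The place of Slc1a2 depended on the transcript length, since its longest transcript has 11595 bases and the coding transcript Slc1a2-201 has 2127 bases. With the shorter length, chosen after the data were seen, Slc1a2 stood at 997 ± 88.1 CPM per kb in WT and 630 ± 151 CPM per kb in TfamAKO (SD, n = 5), above Slc1a3 in both. Its mean was then also above that of Glul, at 722 in WT and 486 CPM per kb in TfamAKO. The ranges of Slc1a2 and Glul were separate in WT and overlapped in TfamAKO. The sum of both transporters overlapped between the genotypes under either length. It was 318 ± 30.1 and 314 ± 50.5 CPM per kb with the longest transcript, and 1133 ± 99.3 and 829 ± 171 CPM per kb with the shorter one (WT and TfamAKO, SD, n = 5). With the shorter length the overlap came from TfamAKO 1 alone, at 1124 CPM per kb, while the other 4 TfamAKO libraries were at 681 to 792 and the lowest WT library at 1035 CPM per kb. The deposited table does not say which transcripts of Slc1a2 were counted.

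In the authors' normalized table, a signal of their own scaling, the means of Slc1a2 were 47287 ± 4779 in WT and 30333 ± 6231 in TfamAKO (SD, n = 5 each). Those of Slc1a3 were 13488 ± 1882 and 19870 ± 2815. With limma on the log2 of these values plus a pseudocount of 1, the log2 fold changes of the 6 genes were -0.66 (Slc1a2), 0.56 (Slc1a3), -0.58 (Glul), -0.60 (Slc6a11), 0.04 (Glud1) and 0.76 (Slc38a3). The calls of all 6 were the same as in the counts.

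Other genes that handle glutamate, glutamine and GABA moved in both directions. Over 7 lists with 56 genes, 55 were tested, of which 13 rose, 21 fell and 21 did not pass. Their median log2 fold change was -0.15, against -0.02 for all genes tested. Of all genes tested 20.8% rose and 16.6% fell, and these shares also stand beside the count of each list below. Without WT 3, 4 and 5, 10 of the listed genes rose and 6 fell, against 2002 and 750 over all genes. Slc1a7 was removed by the filter.

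**Figure D4:**
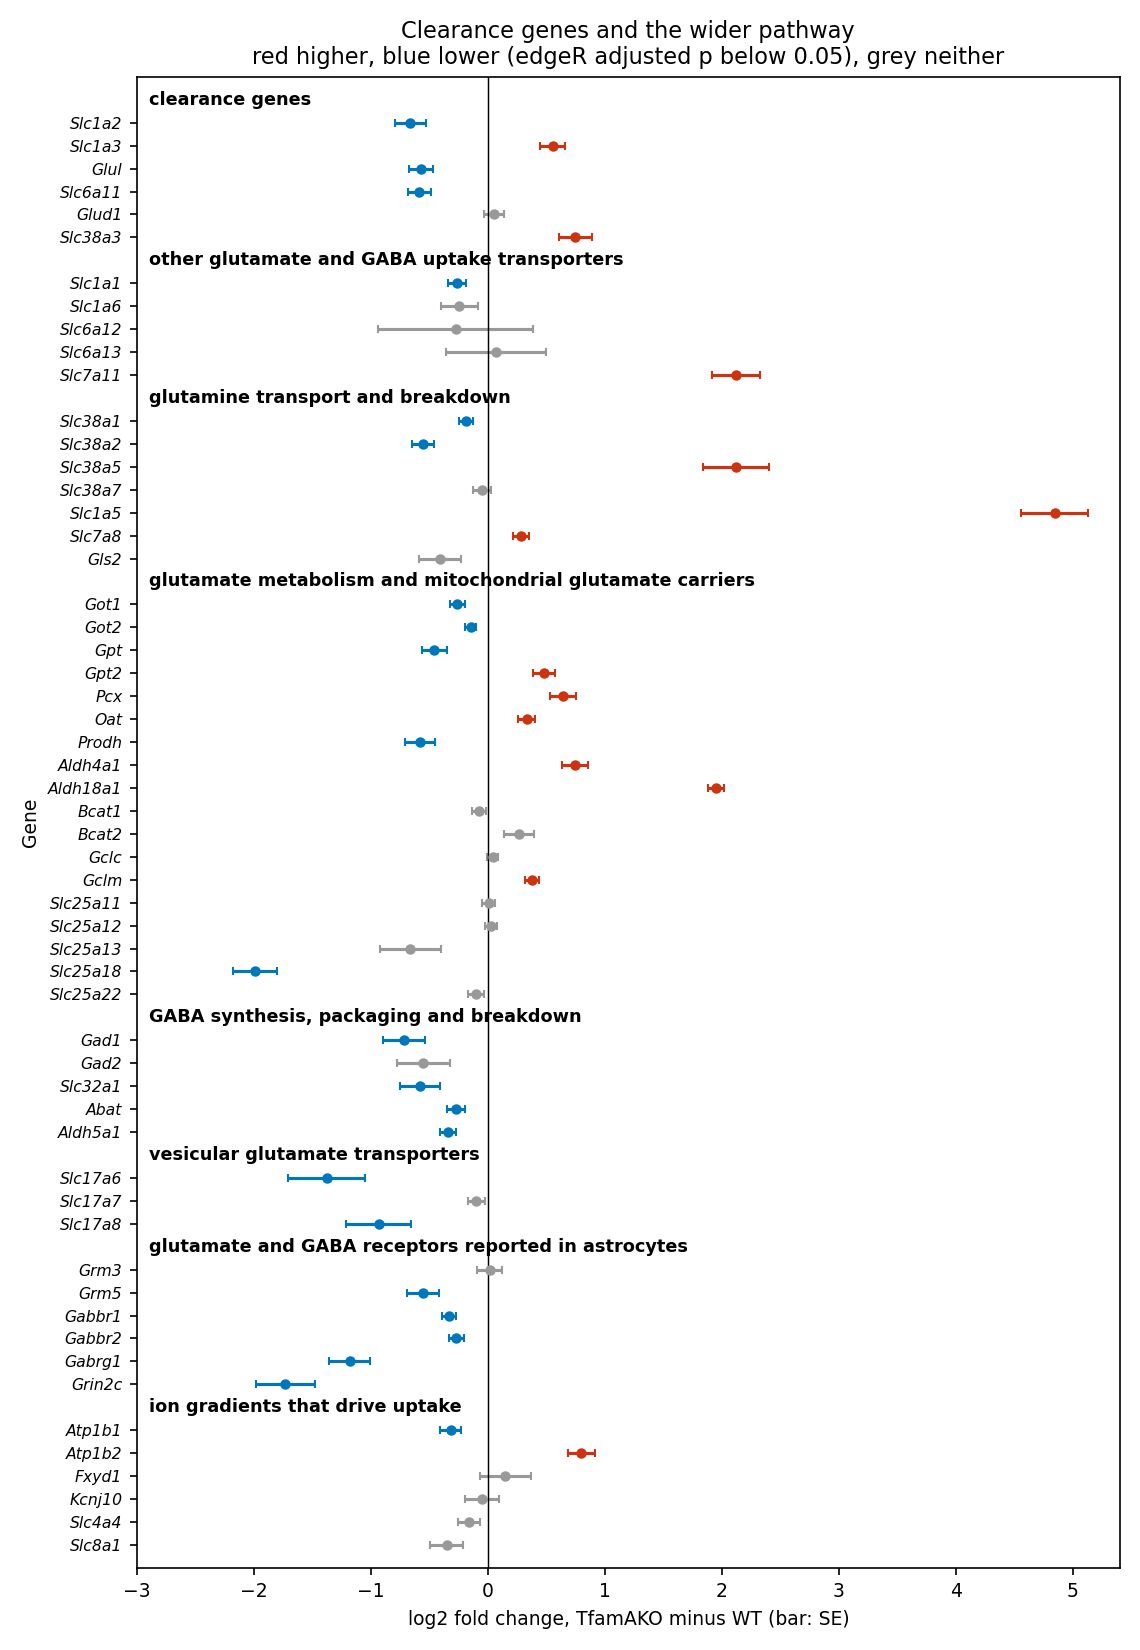
Log2 fold change (horizontal axis, TfamAKO minus WT, bars for SE) of the 6 clearance genes and of other genes of transmitter handling, grouped by role. Red points passed the edgeR test upward, blue points downward and grey points did not pass, and the spread runs from -1.99 for Slc25a18 to 4.84 for Slc1a5.

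In the list of other uptake transporters, which also holds the exchanger Slc7a11, 1 of 6 tested genes rose and 2 fell. The neuronal glutamate transporter Slc1a1 fell (-0.27 ± 0.08). The only gene of the list that rose was Slc7a11, from 24.4 ± 7.83 to 107 ± 17.4 CPM (2.12 ± 0.21). It exchanges intracellular glutamate for cystine and so releases glutamate, and no transporter that takes up glutamate or GABA rose in this list. The Purkinje-cell type transporter Slc1a6 was at 9.23 ± 1.09 and 7.80 ± 1.83 CPM and did not pass.

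For the list of glutamine transport and breakdown, 3 of 8 tested genes rose and 2 fell. Slc1a5, a neutral amino acid exchanger that carries glutamine, was at 1.17 to 3.65 CPM in WT and 48.3 to 106 CPM in TfamAKO (log2 fold change 4.84 ± 0.29). Slc38a5, a close relative of Slc38a3, went from 2.03 ± 0.707 to 8.99 ± 2.88 CPM (2.12 ± 0.28), and Slc7a8 rose by 0.28 ± 0.07 on the log2 scale. The glutamine importers Slc38a2 (-0.56 ± 0.09) and Slc38a1 (-0.19 ± 0.06) fell.

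Of enzymes of glutamate metabolism and mitochondrial glutamate carriers, 6 of 18 tested genes rose and 5 fell. The mitochondrial glutamate carrier Slc25a18, expressed in astrocytes, was at 46.2 to 61.8 CPM in WT and 8.87 to 18.8 CPM in TfamAKO (log2 fold change -1.99 ± 0.19), while the related carrier Slc25a22 was at 290 ± 9.83 and 270 ± 24.8 CPM and did not pass. Aldh18a1, which turns glutamate towards proline, was at 19.2 to 20.5 CPM in WT and 68.8 to 82.3 CPM in TfamAKO (1.95 ± 0.07), and Aldh4a1, a step of proline breakdown to glutamate, rose by 0.74 ± 0.11. Prodh, the first step of proline breakdown, named here after its values were seen, fell from 42.6 ± 6.47 to 28.4 ± 4.74 CPM (-0.58 ± 0.13, edgeR adjusted p = 0.00398), with no overlap. Pyruvate carboxylase Pcx, which replenishes carbon for glutamate synthesis, was at 79.7 to 96.1 CPM in WT and 105 to 165 CPM in TfamAKO (0.64 ± 0.11). Gpt2 (0.48 ± 0.09), Gclm (0.38 ± 0.06) and Oat (0.33 ± 0.08) rose, and the aspartate aminotransferases Got1 (-0.26 ± 0.06) and Got2 (-0.15 ± 0.05) fell. Bcat1, Gclc, Slc25a11 and Slc25a12 had log2 fold changes of -0.08, 0.04, 0.01 and 0.03 and did not pass.

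Genes of GABA synthesis, packaging and breakdown gave 0 of 5 higher and 4 lower. Gad1, which makes GABA in interneurons, went from 337 ± 43.0 to 205 ± 62.0 CPM (log2 fold change -0.72 ± 0.18), with overlap between the groups through TfamAKO 1 at 296 CPM. Slc32a1 (-0.58 ± 0.17), which loads GABA into vesicles, and the GABA-degrading enzymes Abat (-0.27 ± 0.07) and Aldh5a1 (-0.34 ± 0.07) also fell. Gad2 was at 145 ± 18.2 and 98.9 ± 40.7 CPM and did not pass. Of the vesicular glutamate transporters, Slc17a6 (-1.38 ± 0.33) and Slc17a8 (-0.93 ± 0.28) fell, and the abundant Slc17a7 was at 1592 ± 63.0 and 1487 ± 159 CPM without passing.

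Of glutamate and GABA receptors reported in astrocytes, 0 of 6 rose and 5 fell. Grin2c, the gene most like Slc1a2 within genotypes, was at 65.1 to 95.4 CPM in WT, at 43.4 CPM in TfamAKO 1 and at 15.1 to 20.5 CPM in the other TfamAKO libraries (log2 fold change -1.73 ± 0.25). Gabrg1 (-1.18 ± 0.18), Grm5 (-0.55 ± 0.14), Gabbr1 (-0.34 ± 0.06) and Gabbr2 (-0.27 ± 0.06) fell as well. In whole hippocampus the cells that carried these receptor transcripts cannot be told apart. Of 10 neuron markers 0 rose and 8 fell, with a median log2 fold change of -0.28, and the part of neurons in the receptor levels was not tested. Uptake is driven by sodium and potassium gradients, and of 9 genes that build them 3 rose and 1 fell. The sodium pump subunit Atp1b2, found in astrocytes, rose (0.80 ± 0.12), and the subunit Atp1b1, abundant in neurons, fell (-0.32 ± 0.09). The potassium channel Kcnj10 was at 168 ± 30.4 and 162 ± 30.5 CPM and did not pass, and neither did Slc4a4 (-0.16) or Slc8a1 (-0.35).

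Astrocyte markers outside the 6 genes also moved both ways. Of 20 markers 6 rose and 8 fell, against 20.8% higher and 16.6% lower among all genes tested. The markers had a median log2 fold change of -0.03 and a range from -2.42 to 2.90. Their summed level, in which Clu and Aldoc weigh most, overlapped between the genotypes, at 3337 to 4320 CPM in WT and 2992 to 4082 CPM in TfamAKO. Among the defining markers, Aldh1l1 rose (1.29 ± 0.10) and Aldoc fell (-0.81 ± 0.11), and none was at 0 in any library. In whole hippocampus, fewer cells of a type and less RNA per cell cannot be told apart.

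Markers of other cells moved with the genotype too, and their part in the levels of the clearance genes was not tested. Of 10 neuron markers 0 rose and 8 fell, with summed levels of 7925 to 8741 CPM in WT and 6074 to 7200 CPM in TfamAKO. Of 8 microglia markers 7 rose and 0 fell (324 to 380 and 578 to 711 CPM summed), and of 8 endothelial markers 6 rose and 0 fell (224 to 296 and 336 to 517 CPM summed). Oligodendrocyte markers, of interest because these cells also express Glul, gave 3 of 10 higher and 0 lower. Their summed levels were 5195 to 9033 CPM in WT and 5935 to 8044 CPM in TfamAKO. The 9033 CPM was WT 2 alone, with the other WT libraries at 5195 to 6278 CPM. WT 2 was also the highest library for Glul, and without it the Glul log2 fold change was -0.48. TfamAKO 5, with the highest TfamAKO sum, had Glul at 1295 CPM, in a TfamAKO range of 1207 to 1520 CPM. Of 6 precursor markers 0 rose and 1 fell. The shares over all genes tested, 20.8% higher and 16.6% lower, stand beside all these counts.

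Leaving out the 2 libraries with Y-linked transcripts changed none of the 6 calls. Without TfamAKO 4 and 5 the log2 fold changes were -0.61 (Slc1a2), 0.65 (Slc1a3), -0.55 (Glul), -0.62 (Slc6a11), 0.09 (Glud1) and 0.76 (Slc38a3), with edgeR adjusted p of 0.0206, 0.00212, 0.0112, 0.00174, 0.476 and 0.00597. Without WT 3, 4 and 5, Slc1a2 (-0.70 ± 0.19, edgeR adjusted p = 0.0385), Slc1a3 (0.60 ± 0.17, edgeR adjusted p = 0.0400) and Glul (-0.56 ± 0.16, edgeR adjusted p = 0.0413) stayed below the threshold by a small margin.

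**Figure D5:**
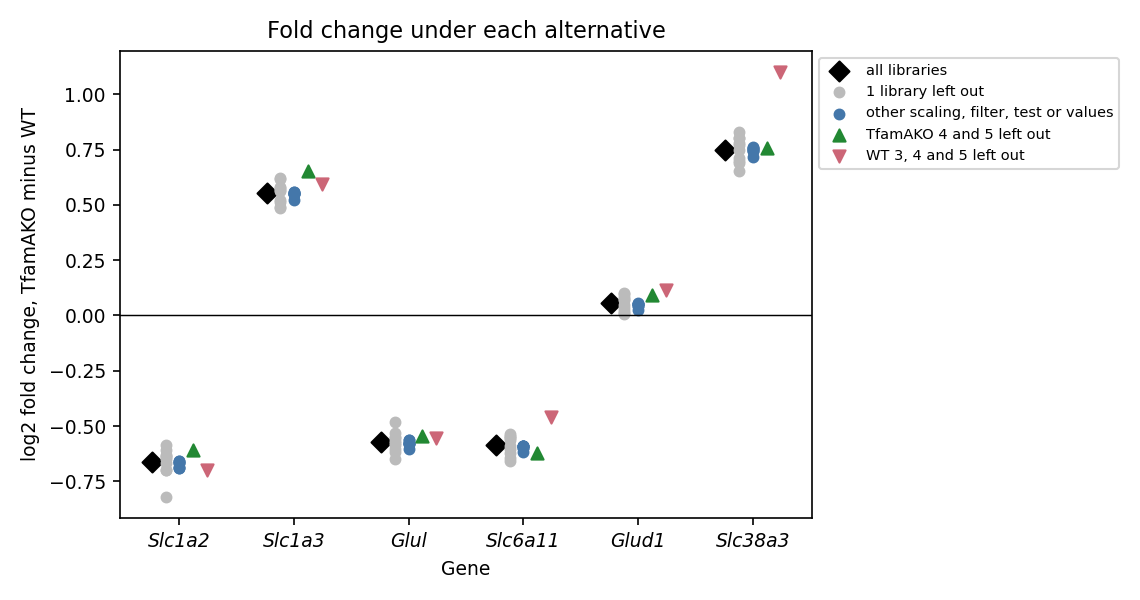
Log2 fold change (vertical axis, TfamAKO minus WT) of each clearance gene with all libraries and under 20 alternatives, with markers for the kind of alternative. No gene changed sign, and Slc38a3 moved most, from 0.75 to 1.10 without WT 3, 4 and 5.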

How the data were processed

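Per the submitters' processing notes, Salmon (no version) and DESeq2 1.26.0 were used, while no source used here names the genome build. The authors deposited estimated counts per gene, all whole numbers, so rounding changed no value, and a second table of normalized values, used here as signal, since no source describes their scaling. Counts went into edgeR 4.0.16 (R 4.3.3), with filterByExpr at its minimum count of 10, which removed 3976 of 20156 genes, TMM scaling and its quasi-likelihood F test (two-sided) on genotype alone. The Benjamini-Hochberg adjustment ran over 16180 genes. The steps were run on simulated data in which far fewer genes changed than passed here. That run therefore does not show how the scaling behaves when many genes change. Alternatives used DESeq2 1.42.0, limma 3.58.1, other scalings and left-out libraries. The genes, the lists, the motifs and the alternatives were chosen with earlier results of these data known. Named genes were all 6 clearance genes, up to 4 of each list with the smallest p, and list members above 50 CPM, of which a few are not reported here by name although the counts of their lists include them. Lengths came from GENCODE M21, with a value for 92.2% of genes. P-values measure the spread between these mice, and depth intervals are not given because reads carry no stated molecular identifiers.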

Additional observations from a re-analysis of the deposited data

Results flagged for a closer look

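TfamAKO 1 stood apart from the other TfamAKO libraries in Slc1a2, at 1890 CPM against 1051 to 1284 CPM, a gap of 0.723 of the group's range where Dixon's critical value for 5 samples is 0.71. It also stood apart in the sum of Slc1a2 and Slc1a3 per kb with the shorter Slc1a2 length, at 1124 against 681 to 792 CPM per kb. Such a rule marks about 1 in 20 groups by chance, and 32 groups were checked. The library was among the others for Glul, Slc6a11, Glud1 and Slc38a3. For Slc1a3 it was the highest TfamAKO library (1042 against 728 to 958 CPM). It lay nearer to WT than other TfamAKO libraries for Grin2c (43.4 against 15.1 to 20.5 CPM) and Ntsr2 (72.9 against 26.8 to 34.2 CPM). For Gfap it lay farther from WT (2749 against 1452 to 2382 CPM). How many genes lay on each side was not counted. Without TfamAKO 1, 3800 genes rose and 3294 fell in place of 3369 and 2679, the most of all 20 alternatives.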

How the results depend on the processing

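The 20 alternatives included 2 scalings, no filter, the DESeq2 Wald test, limma-voom and limma on the normalized table with pseudocounts of 1 and 5. The others were the replicate block, each set of libraries left out on its own, and each library left out. Under all 20 the 6 genes kept their sign. The calls of Slc1a2, Slc1a3, Glul and Slc38a3 and the missing call of Glud1 held in all 20, and that of Slc6a11 in 19. Without WT 3, 4 and 5, Slc6a11 had a log2 fold change of -0.46 (edgeR adjusted p = 0.0608), 6 pathway genes fell in place of 21, and over all genes 2002 rose and 750 fell in place of 3369 and 2679. That fit holds 2 WT libraries, and the cause was not tested. With 1 library left out, log2 fold changes ran from -0.82 to -0.59 (Slc1a2), 0.49 to 0.62 (Slc1a3), -0.65 to -0.48 (Glul), -0.66 to -0.54 (Slc6a11), 0.01 to 0.10 (Glud1) and 0.65 to 0.83 (Slc38a3). The replicate numbers of the labels showed no evident pairing of the libraries. Deviations of same-numbered libraries correlated above 0.1 in 1 of 5 pairs, and 1 of 5 WT libraries correlated best with its own number. With 5 libraries per group, weak pairing could not be seen this way. With the replicate block 5679 genes passed in place of 6048, and no call of the 6 genes changed.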
